A study of Homo sapiens with 8 samples.

Results

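Neuroectoderm transcription factors are the DNA-binding proteins that mark and pattern the embryonic tissue from which the nervous system forms. The 10 genes LHX2, OLIG3, ZIC1, ZIC2, DLX2, PAX6, SOX1, OTX2, NFIA and NFIB were followed here by name, and each was read from the only transcript cluster, the probe group of this array design, that carried its symbol alone. They are 10 of the 18417 genes measured in this way. RNA came from undifferentiated NCCIT cells, a human embryonic carcinoma line of pluripotent character, transiently transfected with small interfering RNAs, as a pool against TET1 (siTET1), against TET2 (siTET2) or against TET3 (siTET3), or with a control siRNA of no target (siNTC). There were 2 Affymetrix Human Gene 1.0 ST arrays per group, 8 in all, made from 250 ng of total RNA. The labels do not say whether replicates came from separate cultures, and p-values measure the spread between these arrays only. All groups shared the cell line and the transfection protocol, and the paper used the pools in separate experiments, with the control in parallel. A depletion by siRNA is partial: the targeted transcript changed by -0.68 ± 0.0481 (log2, SE of the fit) for TET1 in siTET1, by -0.88 ± 0.0954 for TET2 in siTET2 and by -1.08 ± 0.148 for TET3 in siTET3. Other TETs were called against siNTC in limma as well. TET1 was at -0.30 ± 0.0481 (adjusted p = 0.000287) in siTET2 and at 0.42 ± 0.0481 (adjusted p = 1.69e-05) in siTET3. TET2 was at -0.47 ± 0.0954 (adjusted p = 0.00177) in siTET3. On these arrays siTET2 and siTET3 thus differed from siNTC in more than the targeted TET. The paper itself reported that the depletions changed the other TETs little.

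TET proteins oxidise 5-methylcytosine in DNA, mostly at CpG sites, and many developmental transcription factor genes have CpG-rich promoters. OTX2, ZIC1, ZIC2, PAX6, SOX1 and LHX2 are used early, in the neural plate and the forebrain and eye field. OLIG3 and DLX2 act later, in progenitors of the dorsal neural tube and of the ventral forebrain. NFIA and NFIB belong to the nuclear factor I family and are best known for the switch of neural progenitors to glial fates. OTX2 and ZIC2 are also transcribed in pluripotent cells before any neural commitment.

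The promoters of the 6 factors whose RNA changed above background in at least 1 depletion are shown because CpG sites are the sequence on which TET proteins act. Each run is the 250 bases upstream of the first start listed by RefSeq on GRCh38.p14, 5′ to 3′ on the strand of the gene, and CpG sites are in capitals.
NFIA promoter (chr1:61076977-61077226, plus strand): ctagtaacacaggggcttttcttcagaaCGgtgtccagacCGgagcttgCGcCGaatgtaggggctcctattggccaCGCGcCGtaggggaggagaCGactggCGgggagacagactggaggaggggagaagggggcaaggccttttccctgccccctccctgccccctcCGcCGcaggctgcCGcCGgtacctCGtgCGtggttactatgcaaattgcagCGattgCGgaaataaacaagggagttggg
NFIB promoter (chr9:14322388-14322637, minus strand): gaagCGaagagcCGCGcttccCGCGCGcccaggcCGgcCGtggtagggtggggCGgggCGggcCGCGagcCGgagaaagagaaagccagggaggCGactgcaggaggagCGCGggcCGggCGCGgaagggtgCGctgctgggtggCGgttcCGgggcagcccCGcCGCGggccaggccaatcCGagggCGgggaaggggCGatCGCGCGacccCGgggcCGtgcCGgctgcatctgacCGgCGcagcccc
LHX2 promoter (chr9:124011518-124011767, plus strand): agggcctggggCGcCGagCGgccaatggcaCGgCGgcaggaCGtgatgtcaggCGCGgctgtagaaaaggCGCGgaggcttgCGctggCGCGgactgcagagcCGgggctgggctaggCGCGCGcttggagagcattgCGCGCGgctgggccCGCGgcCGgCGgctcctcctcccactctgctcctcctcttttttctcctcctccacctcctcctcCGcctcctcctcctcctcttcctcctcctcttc
OLIG3 promoter (chr6:137494395-137494644, minus strand): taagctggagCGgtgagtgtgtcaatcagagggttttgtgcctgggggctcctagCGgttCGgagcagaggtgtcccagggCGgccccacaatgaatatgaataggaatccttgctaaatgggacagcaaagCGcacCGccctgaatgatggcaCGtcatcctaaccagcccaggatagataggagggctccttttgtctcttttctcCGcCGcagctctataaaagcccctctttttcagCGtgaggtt
ZIC2 promoter (chr13:99981534-99981783, plus strand): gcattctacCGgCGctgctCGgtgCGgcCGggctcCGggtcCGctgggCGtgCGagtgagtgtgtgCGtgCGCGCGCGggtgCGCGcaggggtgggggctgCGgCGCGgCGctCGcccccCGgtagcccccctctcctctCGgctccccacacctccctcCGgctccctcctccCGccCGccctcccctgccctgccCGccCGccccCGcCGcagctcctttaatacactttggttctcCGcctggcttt
OTX2 promoter (chr14:56810480-56810729, minus strand): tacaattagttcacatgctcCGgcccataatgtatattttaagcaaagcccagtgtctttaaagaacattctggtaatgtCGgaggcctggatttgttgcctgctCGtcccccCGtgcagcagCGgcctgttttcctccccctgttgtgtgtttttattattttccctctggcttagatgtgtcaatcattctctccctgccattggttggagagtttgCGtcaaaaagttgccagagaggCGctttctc

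These promoters ran from below the median to above the upper quartile of CpG density. NFIB had 36 CpG sites in the window, ZIC2 had 31, LHX2 had 25, NFIA had 17, OLIG3 had 10 and OTX2 had 7. Across 27305 promoter windows of the same length the median was 11, with quartiles of 3 and 23, so that NFIB, ZIC2 and LHX2 lay above the upper quartile and OLIG3 and OTX2 below the median. The other 4 factors had 22 CpG sites for PAX6, 23 for ZIC1, 25 for DLX2 and 31 for SOX1. Other listed starts differ: NFIA has 3, with 8 to 38 CpG sites, and NFIB has 10, with 3 to 40. PAX6 has 9, with 3 to 28, and OTX2 has 2, with 4 and 7. The array does not tell the starts apart. A TATA box, searched as TATAAA on both strands, was present in the window of OLIG3 alone among the 10, against 11.1% of all promoters. The letters TTGGC, the half-site of nuclear factor I proteins, were present for LHX2, ZIC1, DLX2, PAX6, NFIA and NFIB, against 41.3% of all promoters. The letters CCAAT were present for these same factors and for OTX2, against 33% of all promoters, and the 2 motifs overlap where a window reads GCCAAT or ATTGGC. The letters TAATCC, the core bound by OTX2 itself, were in none of the 10 windows and in 5.67% of all promoters. A match of letters is a description of the window and not a bound site.

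Levels are given as log2 intensities as deposited and are compared between groups for 1 gene at a time, since intensities of different probe groups are not on a common scale. The summed levels of marker lists below are weighted towards the brightest probe groups for the same reason. Background was set at 5.21, the 95th percentile of 341 olfactory receptor genes, which these cells should not transcribe. The factors NFIA, LHX2, OLIG3, ZIC2, OTX2 and DLX2 were above it on all 8 arrays. NFIB was above it on the 2 siNTC arrays alone, and ZIC1, PAX6 and SOX1 were below it on every array. The 2 siNTC arrays stood apart from the rest over all genes, with correlations of 0.989 to 0.991 with the depletion arrays, while depletion arrays of different groups correlated at 0.995 to 0.998 and replicates at 0.998 to 0.999. The comparisons of siTET1, siTET2 and siTET3 with siNTC share these 2 control arrays. A property of the control cells and a response common to the depletions therefore cannot be told apart, and the differences between depletions are the ones whose means do not use siNTC, although their standard errors do.

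**Figure D1:**
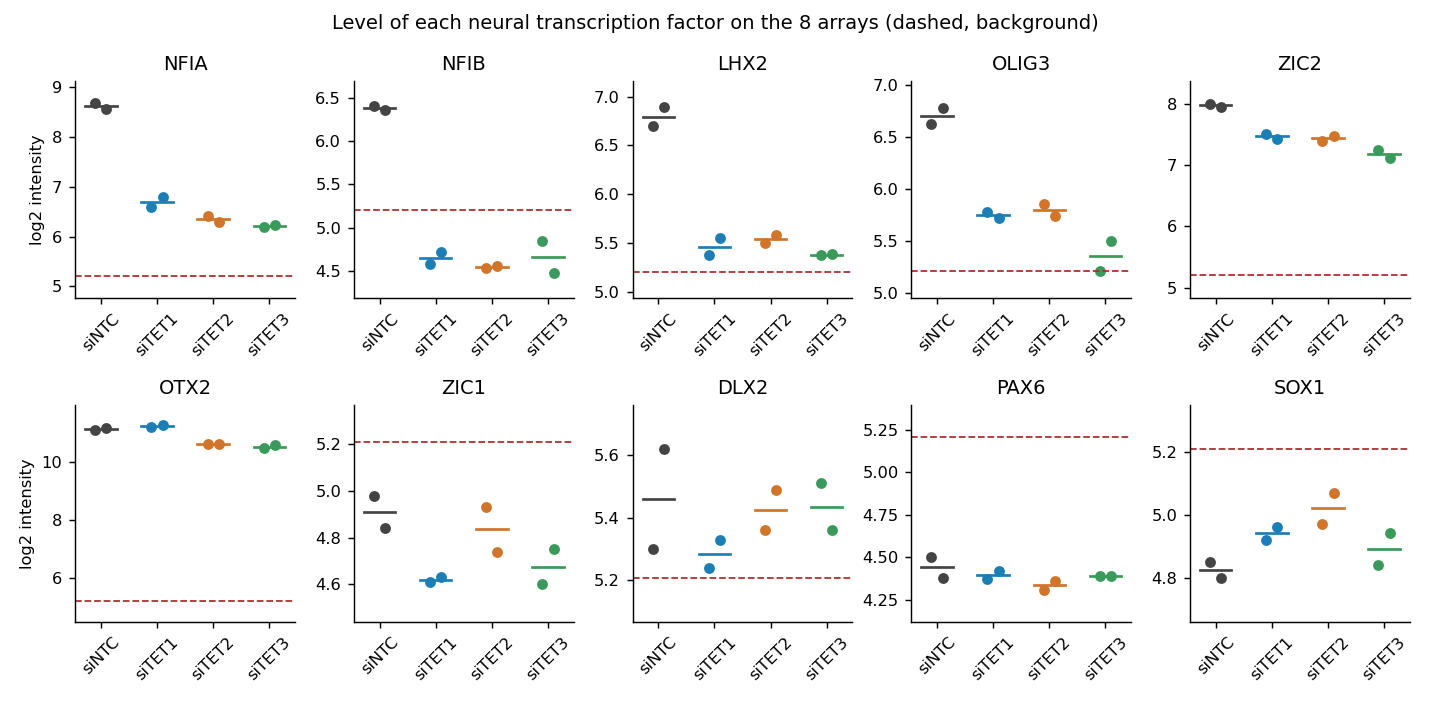
Log2 intensity (vertical axes, a scale of its own for each gene) of the 10 factors on each array of siNTC, siTET1, siTET2 and siTET3 (points; bars, group means; dashed line, background at 5.21). NFIA, NFIB, LHX2, OLIG3 and ZIC2 lay higher on both siNTC arrays than on any depletion array, OTX2 was lower in siTET2 and siTET3 alone, and ZIC1, PAX6 and SOX1 stayed under the dashed line.

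NFIA and NFIB, the nuclear factor I proteins of the gliogenic switch, both fell in each depletion, and NFIA had the largest measured decrease of the 10 factors. NFIA had values of 8.68 and 8.57 in siNTC, 6.60 and 6.80 in siTET1, 6.41 and 6.29 in siTET2 and 6.19 and 6.23 in siTET3. The lowest siNTC array was thus above the highest depletion array, and all arrays were above background. NFIA fell to 26.3% of its siNTC level in siTET1 (95% interval 22.9% to 30.2%; log2 change -1.92 ± 0.092, limma adjusted p = 1.23e-08). It fell to 20.7% in siTET2 (18% to 23.7%; -2.28 ± 0.092, adjusted p = 2.08e-09). In siTET3 it fell to 18.7% (16.3% to 21.5%; -2.42 ± 0.092, adjusted p = 2.24e-09).

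NFIB reached 6.40 and 6.36 in siNTC. In siTET1 it was at 4.58 and 4.72, in siTET2 at 4.53 and 4.56 and in siTET3 at 4.85 and 4.48, so that every depletion array lay below background. Its decrease is therefore a bound, at least 2.25-fold in each depletion, taken from the siNTC mean and background. The fitted changes were -1.73 ± 0.117 in siTET1 (adjusted p = 2.19e-07), -1.84 ± 0.117 in siTET2 (adjusted p = 9.75e-08) and -1.71 ± 0.117 in siTET3 (adjusted p = 2.07e-07). As RNA of whole cultures was measured, fewer cells with a transcript and less of it per cell cannot be told apart, for NFIB or for any other factor.

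LHX2, a LIM-homeodomain factor of the eye field and the cortex, reached 6.70 and 6.89 in siNTC. It was at 5.38 and 5.55 in siTET1, at 5.50 and 5.58 in siTET2 and at 5.38 and 5.39 in siTET3. The 6 depletion arrays spanned less than the distance to siNTC and stayed just above background. LHX2 fell to 39.7% in siTET1 (-1.33 ± 0.104, adjusted p = 7.05e-07), to 41.9% in siTET2 (-1.26 ± 0.104, adjusted p = 9.49e-07) and to 37.6% in siTET3 (-1.41 ± 0.104, adjusted p = 3.81e-07).

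OLIG3, a basic helix-loop-helix factor of dorsal hindbrain and spinal cord progenitors, reached 6.62 and 6.78 in siNTC. It was at 5.78 and 5.72 in siTET1 and at 5.86 and 5.74 in siTET2. In siTET3 it was at 5.21, only just above background, and at 5.50. The siNTC arrays did not overlap with the others, and siTET3 was the lowest group. OLIG3 fell to 51.8% in siTET1 (-0.95 ± 0.114, adjusted p = 2.76e-05), to 53.5% in siTET2 (-0.90 ± 0.114, adjusted p = 3.72e-05) and to 39.5% in siTET3 (-1.34 ± 0.114, adjusted p = 1.28e-06). With background drawn at the 99th percentile of the olfactory receptor genes, at 5.94, the depletion arrays of LHX2 and OLIG3 lay below it, and their decreases would be bounds.

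ZIC2, a zinc finger factor of the neural plate that is mutated in holoprosencephaly, reached 7.99 and 7.95 in siNTC. It was at 7.50 and 7.43 in siTET1, at 7.39 and 7.48 in siTET2 and at 7.24 and 7.11 in siTET3. The decrease was smaller than for the factors above and larger than the spread between replicates in each depletion. ZIC2 fell to 70.4% in siTET1 (-0.51 ± 0.0754, adjusted p = 0.000159), to 69% in siTET2 (-0.54 ± 0.0754, adjusted p = 9.09e-05) and to 57.5% in siTET3 (-0.80 ± 0.0754, adjusted p = 3.13e-06).

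OTX2, a homeodomain factor of the anterior neural plate that also maintains the primed pluripotent state, did not follow the pattern of the others. Its values were 11.09 and 11.16 in siNTC and 11.20 and 11.25 in siTET1, so that siTET1 was the highest group. In siTET2 it was at 10.61 on both arrays and in siTET3 at 10.46 and 10.58, all below the siNTC arrays. OTX2 fell to 70% in siTET2 (-0.52 ± 0.0451, adjusted p = 1.48e-06) and to 65.8% in siTET3 (-0.60 ± 0.0451, adjusted p = 4.02e-07). In siTET1 the change was 0.10 ± 0.0451 with an adjusted p of 0.108, and quantile normalization moved it to 0.137 ± 0.0447 with an adjusted p of 0.0293, past the threshold.

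DLX2, a homeodomain factor of the ventral forebrain, lay between 5.24 and 5.62 on the 8 arrays, and each depletion overlapped with siNTC, at 5.30 and 5.62. The siTET1 arrays, at 5.24 and 5.33, lay just below those of siTET2 and siTET3, at 5.36 to 5.51. Its changes were -0.18 ± 0.119 in siTET1, -0.039 ± 0.119 in siTET2 and -0.024 ± 0.119 in siTET3, with adjusted p of 0.294 to 0.898. The 95% intervals of the level ran from 74% to 106% of siNTC in siTET1, from 81.4% to 116% in siTET2 and from 82.2% to 118% in siTET3. DLX2 was close to background in siNTC already, so that a large decrease would have ended below background and been only a bound.

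ZIC1, PAX6 and SOX1, which are induced as cells become neural, were not above background in any group. ZIC1 lay between 4.60 and 4.98 over the 8 arrays, PAX6 between 4.31 and 4.50 and SOX1 between 4.80 and 5.07. Their log2 differences are between values below background, and no fold change is drawn from them. ZIC1 was called lower in siTET1 in the fit (-0.29 ± 0.101, adjusted p = 0.0388), but that call was lost with quantile normalization (adjusted p = 0.0829) and without siNTC replicate 1 (0.218), siTET1 replicate 1 (0.144) or siTET1 replicate 2 (0.12). PAX6 and SOX1 were not called in any depletion, with adjusted p of 0.372 to 0.74 and of 0.13 to 0.644.

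**Figure D2:**
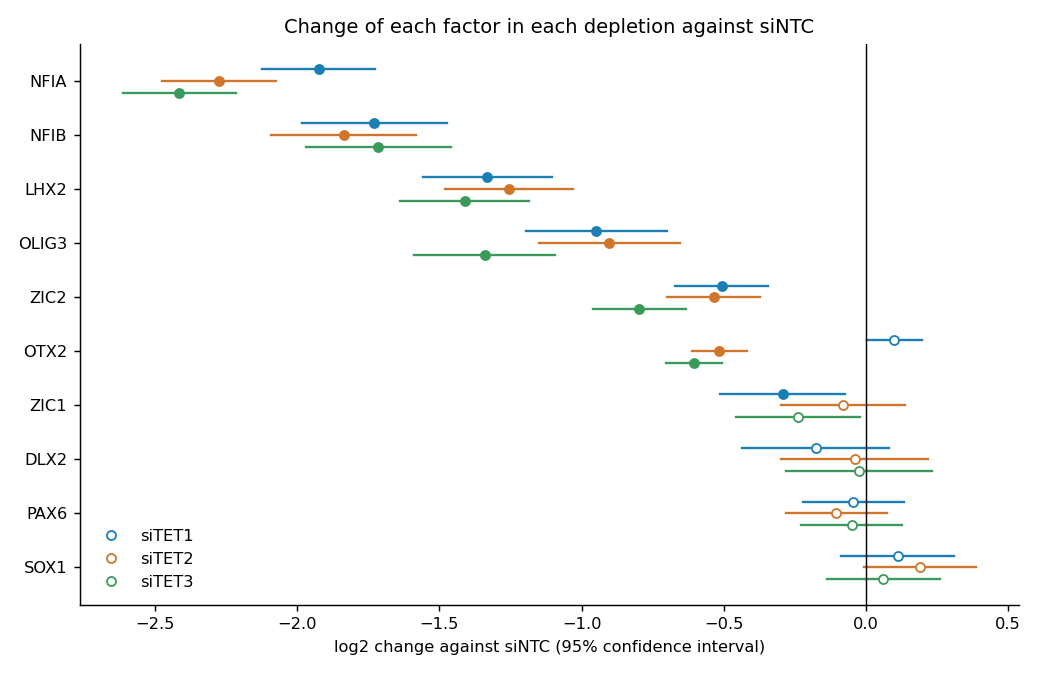
Log2 change of each factor against siNTC (horizontal axis; lines, 95% confidence intervals) in siTET1, siTET2 and siTET3 (filled points, adjusted p under 0.05; open points, not called). NFIA had the largest decreases, at -1.92 to -2.42; NFIB, drawn at its fitted values, and ZIC1, PAX6 and SOX1 lay below background in the depletions.

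In each depletion 6 of the 10 factors were called lower and 0 higher, with a median change of -0.40 in siTET1, -0.53 in siTET2 and -0.70 in siTET3. Over all 18417 genes, 18.7% were called lower in siTET1, 21.8% in siTET2 and 22.3% in siTET3, and the medians were -0.03, -0.04 and -0.02. The factors were chosen with earlier results of these data known. Their counts and medians, here and below, are therefore descriptions and not a test against all genes. The 6 factors were NFIA, NFIB, LHX2, OLIG3 and ZIC2 in every depletion, with ZIC1 in siTET1 and OTX2 in siTET2 and siTET3. Since ZIC1 was below background, and NFIB was below it in the depletions, 4 of the calls in siTET1 were of factors above background. In siTET2 and in siTET3 the number was 5. Of the 12749 genes above background, 2996 were called lower in siTET1, 3569 in siTET2 and 3788 in siTET3. In the mean of the 3 depletions against siNTC, 24.2% of all genes were called lower, and 6 factors were: NFIA (-2.21 ± 0.0752), NFIB (-1.76 ± 0.0959), LHX2 (-1.33 ± 0.0852), OLIG3 (-1.06 ± 0.0934), ZIC2 (-0.61 ± 0.0616) and OTX2 (-0.34 ± 0.0368), with adjusted p of 3.41e-10 to 7.1e-06. The arrays of OTX2 overlapped in this comparison because of siTET1. These calls for the 5 factors that fell in every depletion, and those for OTX2 in siTET2 and siTET3, held in every fit that could be applied to them, with quantile normalization and with any array left out. A threshold of 1.5-fold was not reached by ZIC2 in siTET1 (1.42-fold) and siTET2 (1.45-fold) or by OTX2 in siTET2 (1.43-fold) and in the mean of the 3 depletions (1.27-fold). Genes above background were called more often than genes below it, at 52.9% and 13.1% in either direction in the mean of the 3 depletions.

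Comparisons between depletions asked whether the factors differed in level from 1 siRNA pool to another. OTX2 differed most. It was lower in siTET2 than in siTET1 by -0.62 ± 0.0451 (log2; adjusted p = 7.22e-06), which is 65.2% of the siTET1 level (95% interval 61% to 69.8%). In siTET3 it was lower than in siTET1 by -0.71 ± 0.0451 (adjusted p = 2.45e-06), which is 61.3% (57.3% to 65.6%). These calls held in every fit that was run. Between siTET3 and siTET2 the difference was -0.09 ± 0.0451 (adjusted p = 0.248), and it passed the threshold without siTET3 replicate 2 (-0.149, adjusted p = 0.0481).

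NFIA was higher in siTET1 than in the other depletions. Its difference was -0.35 ± 0.092 for siTET2 against siTET1 (adjusted p = 0.0406) and -0.49 ± 0.092 for siTET3 against siTET1 (adjusted p = 0.00361). The first was lost without either siNTC array (adjusted p = 0.0526 and 0.0522), without either siTET1 array (0.0667 and 0.324) and without either siTET2 array (0.132 and 0.299), and the second without siTET1 replicate 2 (-0.392, adjusted p = 0.0603). Between siTET3 and siTET2, NFIA differed by -0.14 ± 0.092 (adjusted p = 0.39), with a 95% interval of 79% to 104%.

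OLIG3 and ZIC2 were lowest in siTET3. OLIG3 was lower there than in siTET1 by -0.39 ± 0.114 (adjusted p = 0.0381) and than in siTET2 by -0.44 ± 0.114 (adjusted p = 0.0243). For ZIC2 the differences were -0.29 ± 0.0754 against siTET1 (adjusted p = 0.0225) and -0.26 ± 0.0754 against siTET2 (adjusted p = 0.0394). All 4 calls depended on single arrays. The OLIG3 values without siTET3 replicate 1, the array nearest to background, were -0.247 (adjusted p = 0.251) and -0.293 (0.168), and those of ZIC2 without siTET3 replicate 2 were -0.230 (0.0787) and -0.202 (0.13). Leaving out a siTET1 array lost the calls against siTET1 for OLIG3 (0.178 and 0.13) and ZIC2 (0.149 and 0.079), and leaving out a siTET2 array lost the calls against siTET2 for OLIG3 (0.198 and 0.0904) and ZIC2 (0.11 and 0.278). Arrays outside the pair, which enter through the shared spread, lost the OLIG3 call against siTET1 (0.064 and 0.0637 without either siTET2 array) and the ZIC2 call against siTET2 (0.0602 and 0.0595 without either siTET1 array).

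LHX2 and DLX2 did not pass the test between any depletions. The LHX2 level in siTET2 was 105% of that in siTET1 (95% interval 90.1% to 123%), in siTET3 94.6% of siTET1 (80.9% to 111%) and in siTET3 89.8% of siTET2 (76.7% to 105%). For LHX2 the order of group means was thus siNTC, siTET2, siTET1 and siTET3, in which only siNTC and siTET2 were called different as neighbours. For NFIA the order was siNTC, siTET1, siTET2 and siTET3, and the last pair was not called different. For OTX2, siTET1 and siNTC at the top, and siTET2 and siTET3 at the bottom, were not called different within their pairs. The arrays within each of these OTX2 pairs did not overlap, and the 95% interval of siTET1 against siNTC was 0.0030 to 0.1986. In all, 2 of the 10 factors were called lower in siTET2 against siTET1, where 4.13% of all genes were. In siTET3 against siTET1 the number was 4, with 9.94% of all genes, and in siTET3 against siTET2 it was 2, with 7.24%. The number called higher was 0 in each.

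**Figure D3:**
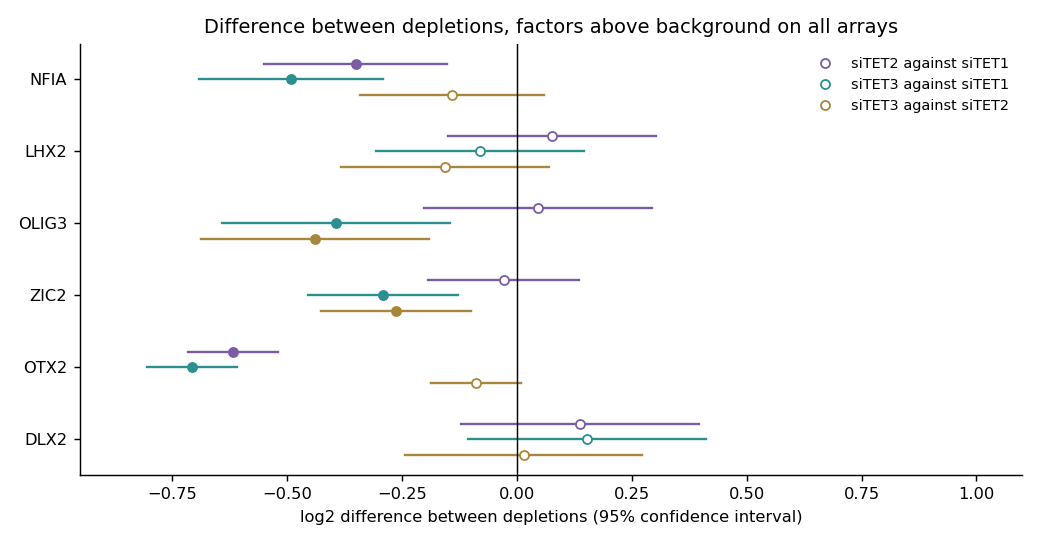
Log2 difference between depletions (horizontal axis; lines, 95% confidence intervals) of the 6 factors above background on all arrays (filled points, adjusted p under 0.05). OTX2 lay at -0.62 and -0.71 in siTET2 and siTET3 against siTET1 and at -0.09 between siTET3 and siTET2, while LHX2 and DLX2 had intervals that include 0.

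Relatives in the same gene families were examined next, and 30 were measured. In the mean of the 3 depletions 4 were called lower, 0 higher and 26 were not called, with a median of -0.04, beside -0.48 for the 10 factors and -0.03 for all genes. Factors and lists were chosen with earlier results of these data known, so that these medians are descriptions. Of all genes 24.2% were called lower and 40.7% in either direction, and 13 of the relatives were below background on every array. NFIC and NFIX, the other nuclear factor I genes, were above background on all arrays and were not called, at -0.10 ± 0.076 (adjusted p = 0.35) and 0.11 ± 0.0863 (adjusted p = 0.339). NFIC had 7.06 and 7.01 in siNTC and between 6.75 and 7.05 in the depletions. NFIX had 5.73 and 5.90 in siNTC and between 5.74 and 6.01 in the depletions.

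ZIC5, which lies next to ZIC2 in head-to-head orientation, fell with it. Its values were 6.47 and 6.41 in siNTC, 6.10 and 6.11 in siTET1, 6.06 and 5.98 in siTET2 and 5.99 and 6.19 in siTET3. The siNTC arrays were above all others. Its change was -0.37 ± 0.0804 in the mean of the 3 depletions (adjusted p = 0.00228), and it was called in each depletion, with adjusted p of 0.0186, 0.00416 and 0.0135. The calls in siTET1 and siTET3 depended on single arrays. The call in siTET1 was lost without siNTC replicate 1 (adjusted p = 0.0914), siNTC replicate 2 (0.0505), siTET1 replicate 1 (0.0844) or siTET1 replicate 2 (0.0769), and that in siTET3 without siNTC replicate 1 (0.072) or siTET3 replicate 1 (0.101).

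SOX2, a SOXB1 factor like SOX1 and a core gene of pluripotency, fell slightly, from 12.67 and 12.68 on the siNTC arrays to between 12.48 and 12.60 in the depletions (-0.13 ± 0.023, adjusted p = 0.000441). DLX5 (-0.33 ± 0.0897, adjusted p = 0.0097, at least 1.24-fold) was called, and lost the call without siNTC replicate 1 (-0.278, adjusted p = 0.108). LHX9 was called below background on every array (-0.21, adjusted p = 0.0281), and that call was lost with quantile normalization (-0.175, adjusted p = 0.0771). It was also lost without siNTC replicate 1 (-0.257), siNTC replicate 2 (-0.168), siTET1 replicate 1 (-0.190) or siTET2 replicate 1 (-0.208). Of the 30 relatives 11 were above background on every array.

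**Figure D4:**
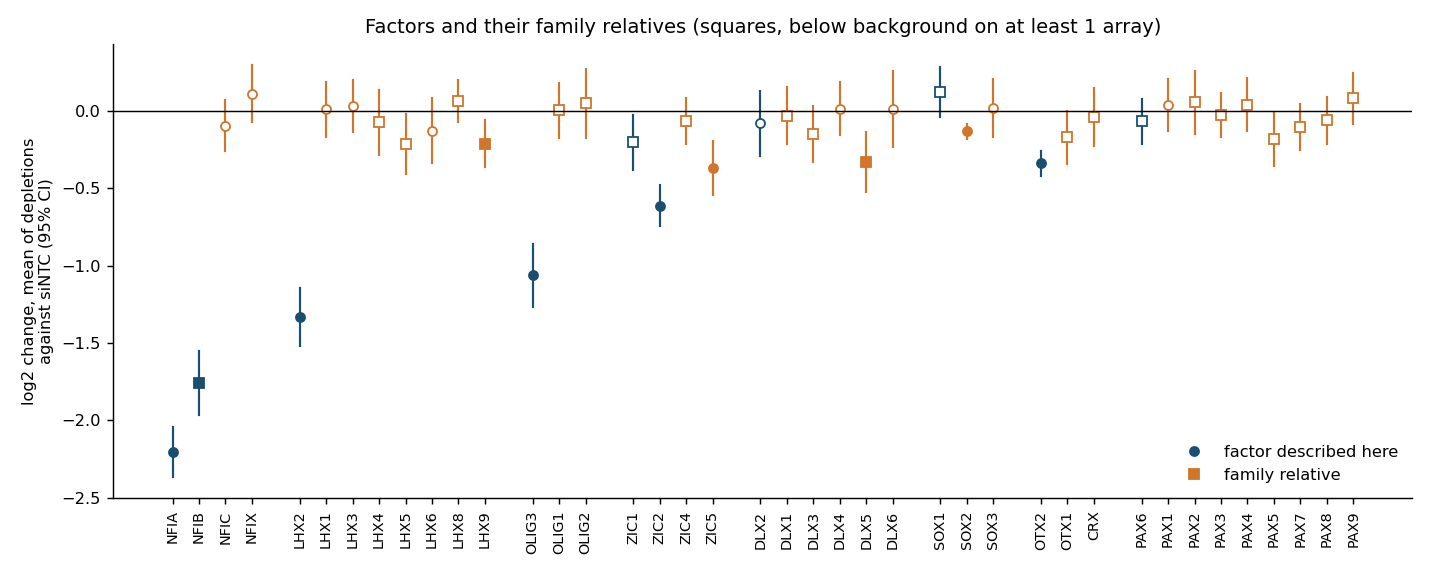
Log2 change in the mean of the 3 depletions against siNTC (vertical axis; lines, 95% confidence intervals) of the 10 factors (blue) and their 30 measured family relatives (orange), grouped by family (filled, adjusted p under 0.05; squares, below background on at least 1 array). NFIA and NFIB lay at -2.21 and -1.76 while NFIC and NFIX lay at -0.10 and 0.11, and ZIC5 lay at -0.37 beside ZIC2 at -0.61.

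Other regulators of neural development were counted in lists. Of 29 measured neural plate and brain patterning factors, in the mean of the 3 depletions 2 were called lower and 0 higher, and the median was 0.01, where 24.2% of all genes were called lower. These were the TALE homeodomain factor MEIS2 (-0.83 ± 0.0694, adjusted p = 6.61e-07) and HESX1, a repressor of the anterior neural plate (-0.73 ± 0.0864, adjusted p = 1.61e-05). MEIS2 had values of 7.51 and 7.43 in siNTC, 7.02 and 7.14 in siTET1, 6.54 on both siTET2 arrays and 6.25 and 6.32 in siTET3. Like NFIA, MEIS2 was higher in siTET1 than in siTET2 and siTET3, which were lower than siTET1 by -0.54 ± 0.085 (adjusted p = 0.00278) and -0.80 ± 0.085 (adjusted p = 7.86e-05). HESX1 had 6.66 and 6.40 in siNTC and between 5.66 and 5.93 in the depletions. The other 27 were not called, and 9 of the 29 were below background on every array, among them SIX3, EMX2 and NKX2-1.

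Of 24 measured proneural, Notch and neural crest factors, 9 were called lower, 1 higher and 14 were not called, with a median of -0.08. This is 41.7% called in either direction, near the 40.7% of all genes. Of all genes 24.2% were called lower, and 7 of the 9 lower calls in this list were of genes above background. The crest regulators SNAI2 (-0.50 ± 0.0633, adjusted p = 2.67e-05) and TFAP2A (-0.48 ± 0.0268, adjusted p = 1.99e-08) fell. So did ZEB2, a repressor of epithelial genes (-0.42 ± 0.0425, adjusted p = 4.19e-06), whose change ran from -0.445 to -0.234 over the alternative fits. The proneural gene ATOH1 fell as well (-0.36 ± 0.0891, adjusted p = 0.00561), and its call was lost without siNTC replicate 1 (-0.248). TFAP2A had values of 12.32 and 12.29 in siNTC, 12.00 and 12.02 in siTET1, 11.77 and 11.81 in siTET2 and 11.66 and 11.69 in siTET3. Its depletion groups were ordered as for NFIA, with siTET1 highest.

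The labelled cell type was set against its markers. All 9 measured markers of pluripotent cells (SOX2, LIN28A, SALL4, DNMT3B, L1TD1, PODXL, ZFP42, GDF3 and DPPA4) were above background on all 8 arrays, and POU5F1, NANOG and TDGF1 were not analysed here. Their summed level, as log2, was 15.09 to 15.13 on the siNTC arrays and 15.11 and 15.13 on the siTET1 arrays. It was 15.06 and 15.08 in siTET2 and 15.02 and 15.07 in siTET3, all below siNTC. Over the 3 depletions together 3 were called higher and 4 lower, where 52.9% of all genes above background were called in either direction, and the median was -0.06. L1TD1 rose by 0.44 ± 0.028, and PODXL fell by 0.66 ± 0.0287.

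Of 19 measured markers of neural progenitors, glia and neurons, 6 were called lower, 3 higher and 10 were not called, with a median of -0.09. This is 47.4% called, beside 40.7% of all genes and 52.9% of those above background. The 6 lower calls and 2 of the 3 higher calls were of genes above background. Summed over the 19 markers, the level was 13.76 and 13.79 on the siNTC arrays and 13.63 to 13.80 on the depletion arrays. The neuronal and glial markers AQP4, S100B, ELAVL3, ELAVL4, NEFM and SYP were below background on every array, and TUBB3 was not analysed here. The microtubule regulator STMN2 rose (1.01 ± 0.0285, adjusted p = 6.72e-11), from 10.42 and 10.46 on the siNTC arrays to between 11.24 and 11.65. The glutamate transporter SLC1A3 rose (0.81 ± 0.037, adjusted p = 3.95e-09), and the dendrite protein MAP2 (-0.83 ± 0.0558, adjusted p = 1.03e-07) and the progenitor marker PROM1 (-0.45 ± 0.0366, adjusted p = 4.83e-07) fell. Members of this list thus moved in both directions while NFIA, NFIB, LHX2, OLIG3 and ZIC2 fell. Of 14 markers of mesendoderm and trophectoderm, 2 were called higher, 2 lower and 10 were not called, with a median of -0.03. This is 28.6% called beside 40.7% of all genes. The 2 lower calls and 1 of the 2 higher calls were of genes above background. Summed over the 14 markers, the level was 9.44 on both siNTC arrays and 9.27 to 9.37 on the depletion arrays, which all lay below siNTC. HAND1, a factor of mesoderm and trophoblast, fell to 54.2% of its siNTC level (-0.88 ± 0.0803), and the endoderm factor GATA6 rose (0.37 ± 0.0878). SOX17, FOXA2, CGA and KRT7 were below background on every array. Whether a share of cells that had begun to differentiate contributed to the siNTC levels of the factors was not tested.

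Chromosomal neighbours were examined to set each factor beside its surroundings. For each factor the 20 nearest measured genes were taken, 10 on each side, and the median change of those above background was set beside the factor. For NFIA on chromosome 1 the neighbours' median was 0.13 in the mean of the 3 depletions, with 2 lower and 7 higher of 13 above background, against -2.21 for NFIA. For LHX2 on chromosome 9 it was 0.07, with 0 lower and 7 higher of 15, and LHX2 was at -1.33. NFIB, also on chromosome 9, had neighbours at -0.15, with 5 lower and 1 higher of 15.

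OLIG3 on chromosome 6 had neighbours at -0.13, with 6 lower and 2 higher of 13, and the nearest gene on 1 side, the inflammatory regulator TNFAIP3, rose (0.59 ± 0.0698, adjusted p = 1.52e-05). On the other side the interferon receptor gene IFNGR1 was called lower (-0.13 ± 0.0477, adjusted p = 0.0457). ZIC2 on chromosome 13 had neighbours at -0.01, with 2 lower and 4 higher of 12. PCCA, a mitochondrial carboxylase gene on the other side of ZIC2 from ZIC5, was at 0.01 ± 0.0583 (adjusted p = 0.95). OTX2 on chromosome 14 had neighbours at -0.03, with 4 lower and 5 higher of 14, and the next gene, the exocyst gene EXOC5, rose (0.51 ± 0.0399, adjusted p = 3.51e-07). The decreases of these 6 factors were larger than the median shift of their neighbourhoods. As the 6 were grouped by their decreases, this is a description and not a test. A median also does not show single neighbours, such as ZIC5, which fell beside ZIC2.

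For DLX2 on chromosome 2 the neighbours had a median of -0.41, with 15 called lower and 1 higher of 18 above background, and DLX2 was at -0.08 ± 0.0972. Its siNTC mean of 5.46 lay close to background. A decrease of the size of its neighbours' median would have ended below background and been only a bound. The neighbours' medians were -0.38, -0.44 and -0.40 in siTET1, siTET2 and siTET3. Of the nearest genes, DLX1 was below background on every array, and the integrin gene ITGA6 was at 0.02 ± 0.0335 (adjusted p = 0.679). Neighbours of PAX6, SOX1 and ZIC1 had medians of 0.12, 0.06 and -0.04.

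**Figure D5:**
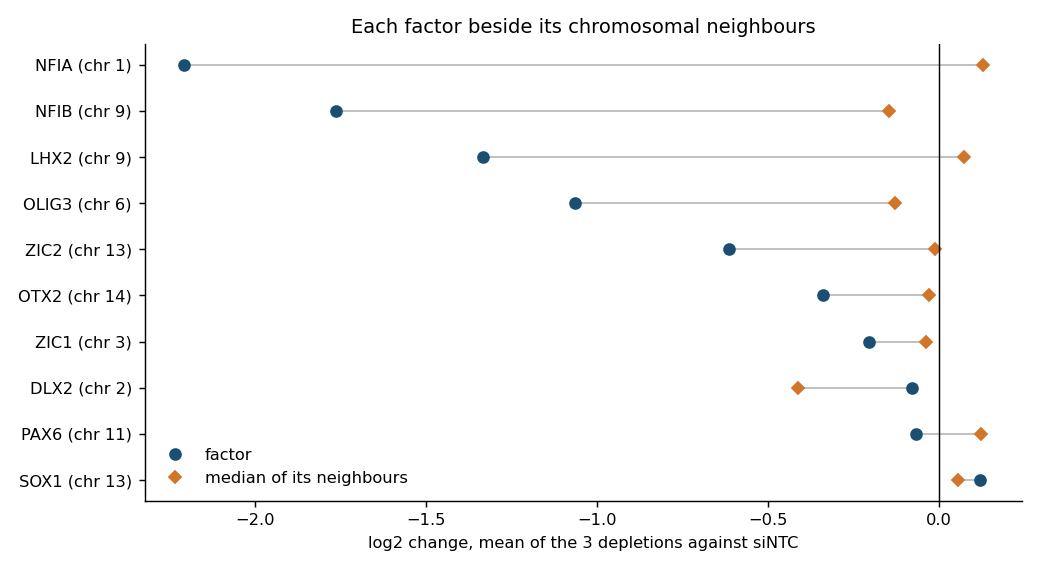
Log2 change in the mean of the 3 depletions against siNTC (horizontal axis) of each factor (circles) and the median of those of its 20 nearest measured genes that were above background (diamonds). NFIA lay at -2.21 beside neighbours at 0.13, and DLX2, close to background, at -0.08 beside neighbours at -0.41.

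The factors with group means that spanned at least 1 log2 unit above background, NFIA, LHX2 and OLIG3, were compared over the 8 arrays with 12124 genes. These correlations are descriptions over 4 groups of 2 arrays, in which siNTC is the distant group. The profile of NFIA was most like those of VKORC1L1 (r = 0.998), PLOD1 (0.9975) and PTPRU (0.9971), which changed by -0.89, -0.49 and -1.20 in the mean of the 3 depletions. LHX2 was most like CADM1 (r = 0.9986), SIN3A (0.9964) and RAB5B (0.9962), and OLIG3 was most like FREM1 (0.9951), PTN (0.9941) and PRKCZ (0.9924). Among the factors, NFIA correlated with LHX2 at 0.9757, with OLIG3 at 0.9453, with ZIC2 at 0.9428, with OTX2 at 0.6233 and with DLX2 at 0.1747.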

How the data were processed

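RNA of NCCIT cells was measured on 8 arrays, 2 in each of siNTC, siTET1, siTET2 and siTET3, grouped by their labels. The deposited values are log2 intensities of 33297 transcript clusters, which the authors normalized with Partek; for its version, and for how background was corrected and probes were summarized, the sources used here give nothing. Array medians lay between 6.22 and 6.27, and the number of arrays limits the precision. Of the clusters 19460 carried 1 gene symbol, 1754 several and 12083 none, and only the first were used. A gene with several clusters (769 genes) was represented by the brightest, which left 18417 genes. The columns were used as deposited.

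A linear model of the 4 groups was fitted to all arrays in limma 3.58.1 (R 4.3.3) with lmFit and eBayes, the prior variance following intensity (degrees of freedom: 4 residual, 8.55 prior). Tests were two-sided, p-values were adjusted after Benjamini and Hochberg over all genes of a comparison, and calls were made at an adjusted p under 0.05. Errors are the fit's standard errors, for n = 2 in each group. Background was the 95th percentile of the 8-array means of 341 olfactory receptor genes, and 12749 genes (69.2%) lay above it. Where a gene was below background on an array, its fold change is a bound, for which arrays under background were set to it. The fit was tested on simulated data.

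The factors, lists and tests were chosen with earlier results of these data known. The naming rule took all 10 factors and their family relatives. From each further neural list up to 4 called members above background with the largest change were named, with the nearest measured genes, the 3 genes most correlated with a factor, and the targeted TETs. L1TD1, PODXL, HAND1 and GATA6 were named after their values were seen. Symbols and gene order came from RefSeq on GRCh38.p14, and promoter sequences are RefSeq's. All 10 factors matched. Alternatives were quantile normalization, fitting the compared groups alone, leaving out the intensity trend, restriction to genes above background, averaging of clusters, the replicate number as a block, omission of each array, a 1.5-fold threshold, other background percentiles and, chosen after seeing the data, values floored at background. Figures were drawn with matplotlib 3.10.9.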

Additional observations from a re-analysis of the deposited data

How the results depend on the processing

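The decreases of NFIA, NFIB, LHX2, OLIG3 and ZIC2 against siNTC in each depletion, and of OTX2 in siTET2 and siTET3, kept their direction and stayed past the threshold in every alternative fit that could be applied to them. Counts between depletions were less stable. For siTET2 against siTET1 the 2 calls became 1 without an intensity trend, with values floored at background and with a 1.5-fold threshold, and 1 to 2 with an array left out. For siTET3 against siTET1 the 4 calls became 2 in the fit of those groups alone and 1 with a 1.5-fold threshold, and 1 to 4 with an array left out, and 3 with quantile normalization, where ZIC2 was lost (-0.198, adjusted p = 0.145), and without an intensity trend, where OLIG3 was lost (adjusted p = 0.064). For siTET3 against siTET2 the 2 calls became 1 with quantile normalization and in the fit of those groups alone, 0 without an intensity trend and with a 1.5-fold threshold, and 0 to 2 with an array left out. With background at the 99th percentile 3 factors were above it in place of 6. The cause of these moves was not tested. Differences near 0 changed sign. Under quantile normalization they were ZIC2 in siTET2 against siTET1 (0.008), DLX2 in siTET3 against siTET2 (-0.021) and PAX6 in siTET1 (0.030). With an array left out the ranges were -0.009 to 0.16 and -0.165 to 0.004 for LHX2 in siTET2 and siTET3 against siTET1, -0.014 to 0.106 for OLIG3 and -0.072 to 0.015 for ZIC2 in siTET2 against siTET1, -0.175 to 0.014 for ZIC1 in siTET2, and -0.101 to 0.014 and -0.107 to 0.008 for PAX6 in siTET1 and siTET3. For DLX2 they were -0.2 to 0.122 in siTET2, -0.185 to 0.137 in siTET3, -0.241 to 0.081 in the mean of the 3 depletions and -0.062 to 0.092 for siTET3 against siTET2. The labels do not say whether arrays with the same replicate number were handled together. Deviations of same-numbered arrays correlated at -0.052 to 0.249 over 12749 genes, highest for siTET1 with siTET3, which cannot decide it. With the replicate number as a block, 84 of 84 values and counts kept their call, and 6 factors were called lower in each depletion. Low signal limits LHX2, OLIG3, DLX2 and NFIB, whose depletion arrays lie near or below background.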
